A study of Homo sapiens with 8 samples.

Results

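VCaP and C4-2B are human prostate cancer cell lines, and the enzalutamide-sensitive form of each was compared here at baseline. Enzalutamide is an antiandrogen that blocks androgen signalling. Enzalutamide-sensitive VCaP gave 1 library and enzalutamide-sensitive C4-2B gave 2 libraries labelled as biological replicates, together 3 of the 8 libraries of the series. VCaP was established from a vertebral metastasis and is known for a fusion of TMPRSS2 with ERG. C4-2B is a castration-resistant derivative of LNCaP, and these cells carried a luciferase and GFP transgene, whereas no transgene is given for VCaP. Polyadenylated RNA was sequenced as paired ends, and no drug treatment is given for either group. Each cell line stands for 1 tumour, so line, transgene and any difference between the libraries cannot be told apart.

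The VCaP library was set against the mean of both C4-2B libraries over the 13180 genes listed in the tables of both lines. Each library was rescaled to 1000000 reads over these genes, and that value is called the level here. It is not divided by transcript length, so levels compare the lines for a gene and not genes with each other. The libraries held 17895964 reads in these genes for VCaP, and 19969568 and 19917736 for C4-2B. A gene was compared where its level reached 5 in VCaP or in the C4-2B mean, which left 11676 genes. Differences are counted from 2-fold on, as a log2 ratio of level + 1. The tables of the lines were normalised separately and VCaP has 1 library, so differences were not tested and have no replicate check on the VCaP side. Single folds are ratios of levels with an exact Clopper-Pearson 95% interval, which covers counting error only. Counts over a gene list cover its members that reached this minimum in either line, and a gene that did so in 1 line alone had to differ. Where a line had no read, a floor of 3 reads over its libraries gives a lower bound.

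Prostate luminal cells depend on the androgen receptor, a nuclear receptor that switches on kallikreins such as KLK2 and KLK3 through androgen response elements. In tumours with the TMPRSS2 and ERG fusion, androgen drives ERG, a transcription factor of the ETS family. ATF4 is a transcription factor of the integrated stress response and activates genes of amino acid transport and synthesis. Genes of the G2 and M phases of the cell cycle often carry a cell cycle homology element near their start.

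The promoters of genes on which the results turn are shown first, as the 250 bases before the start in RefSeq GRCh38.p14, 5′ to 3′ on the gene's strand. KLK2 and KLK3 are shown because these neighbouring genes differed in opposite directions. Capitals mark GAACA and AGTGCT separated by 3 bases, the letters of the proximal androgen response element of KLK3. KLK2 lies at chr19:50873189-50873438 and KLK3 at chr19:50854665-50854914, both on the plus strand.
KLK2: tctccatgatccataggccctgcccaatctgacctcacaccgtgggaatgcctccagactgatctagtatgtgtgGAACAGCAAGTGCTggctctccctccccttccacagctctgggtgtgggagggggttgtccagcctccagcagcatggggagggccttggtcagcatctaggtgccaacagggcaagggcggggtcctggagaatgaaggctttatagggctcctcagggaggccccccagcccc
KLK3: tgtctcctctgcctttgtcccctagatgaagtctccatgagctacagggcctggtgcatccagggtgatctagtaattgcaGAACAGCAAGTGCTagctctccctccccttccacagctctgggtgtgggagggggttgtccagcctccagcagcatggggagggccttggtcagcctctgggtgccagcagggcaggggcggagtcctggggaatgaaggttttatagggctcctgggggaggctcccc
The match began 175 bases before the start in KLK2 and 169 bases before it in KLK3. The windows were identical at 201 of 256 aligned positions, or 78.5%. Searched on both strands, these letters stood in 12 of 27305 promoters (0.04395%). Among the 26 promoters of androgen-activated genes they stood in 2, those of KLK2 and KLK3. The letters are those of the KLK3 element and the KLK2 window resembles it. The count of 2 is therefore no measure of enrichment in the list.

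ASNS and CHAC1 are shown as genes of the ATF4 list, in which 27 of 32 members were lower in VCaP. Capitals mark TGATGNAA on either strand, the letters of a C/EBP-ATF response element. ASNS lies at chr7:97872409-97872658 on the minus strand and CHAC1 at chr15:40953221-40953470 on the plus strand.
ASNS: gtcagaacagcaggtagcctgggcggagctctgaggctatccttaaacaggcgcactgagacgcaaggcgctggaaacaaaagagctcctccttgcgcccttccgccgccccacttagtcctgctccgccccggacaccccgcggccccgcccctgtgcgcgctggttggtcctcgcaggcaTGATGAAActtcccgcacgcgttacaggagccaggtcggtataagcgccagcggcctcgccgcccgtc
CHAC1: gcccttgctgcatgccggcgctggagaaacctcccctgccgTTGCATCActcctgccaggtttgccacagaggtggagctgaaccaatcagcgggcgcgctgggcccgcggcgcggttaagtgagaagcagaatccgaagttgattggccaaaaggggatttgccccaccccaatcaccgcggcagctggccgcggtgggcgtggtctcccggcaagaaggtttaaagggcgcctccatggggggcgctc
The match began 68 bases before the start in ASNS and 209 bases before it in CHAC1. It stood in 4 of 27 promoters of the list, in 1.2% of the promoters of compared genes and in 3.186% of all promoters.

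CDC20 is shown for the G2 and M phase genes, and MAGEA3 for the cancer-testis genes. In CDC20, capitals mark TTTGAA on either strand, the letters of the cell cycle homology element, at chr1:43358731-43358980 on the plus strand. In MAGEA3, capitals mark each CG, since DNA methylation at CG is known to silence this family in most tissues, at chrX:152698544-152698793 on the plus strand.
CDC20: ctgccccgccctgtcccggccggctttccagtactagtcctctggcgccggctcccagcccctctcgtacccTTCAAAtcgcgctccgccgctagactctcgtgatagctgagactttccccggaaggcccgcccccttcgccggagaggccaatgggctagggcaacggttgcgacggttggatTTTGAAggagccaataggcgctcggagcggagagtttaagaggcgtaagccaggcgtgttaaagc
MAGEA3: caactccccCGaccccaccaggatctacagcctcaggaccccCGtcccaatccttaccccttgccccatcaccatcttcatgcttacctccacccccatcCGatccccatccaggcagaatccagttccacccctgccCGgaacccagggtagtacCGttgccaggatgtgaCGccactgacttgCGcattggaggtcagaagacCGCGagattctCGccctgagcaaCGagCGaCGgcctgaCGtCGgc
TTTGAA stood in 14 of 29 promoters of G2 and M phase genes, in 7.716% of those of compared genes and in 13.57% of all. CDC20 held 2 matches, which began 178 and 65 bases before the start. MAGEA3 held 15 CG, and its window was identical to that of MAGEA6 at all 250 bases. A match describes letters and not a site in use, and no methylation was measured.

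Of the 11676 genes compared, 2058 (17.6%) were at least 2-fold higher in VCaP and 2345 (20.1%) at least 2-fold lower. Against each C4-2B replicate alone, 1933 of the higher and 2177 of the lower genes passed the same fold. Between the C4-2B replicates, 13 of 10912 genes (0.119%) passed it. The difference between the lines therefore exceeded the spread between the C4-2B libraries. At 4-fold, 879 genes were higher and 607 lower, and at 16-fold, 213 were higher and 64 lower. The median log2 ratio was −0.12, and with median-of-ratios scaling it was 0.01, which changed the split to 2344 higher and 1994 lower genes. Directions near 2-fold are therefore relative to this scaling. Across the 12868 genes listed in every table, log2 levels correlated at 0.788 between VCaP and each C4-2B library and at 0.995 between the C4-2B replicates, genes not being independent replicates. The library labelled VCaPENZR correlated with VCaP at 0.728 and with that of CWR-R1ENZR, a resistant form of another prostate line, at 0.940, and it enters no result here except where named.

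**Figure D1:**
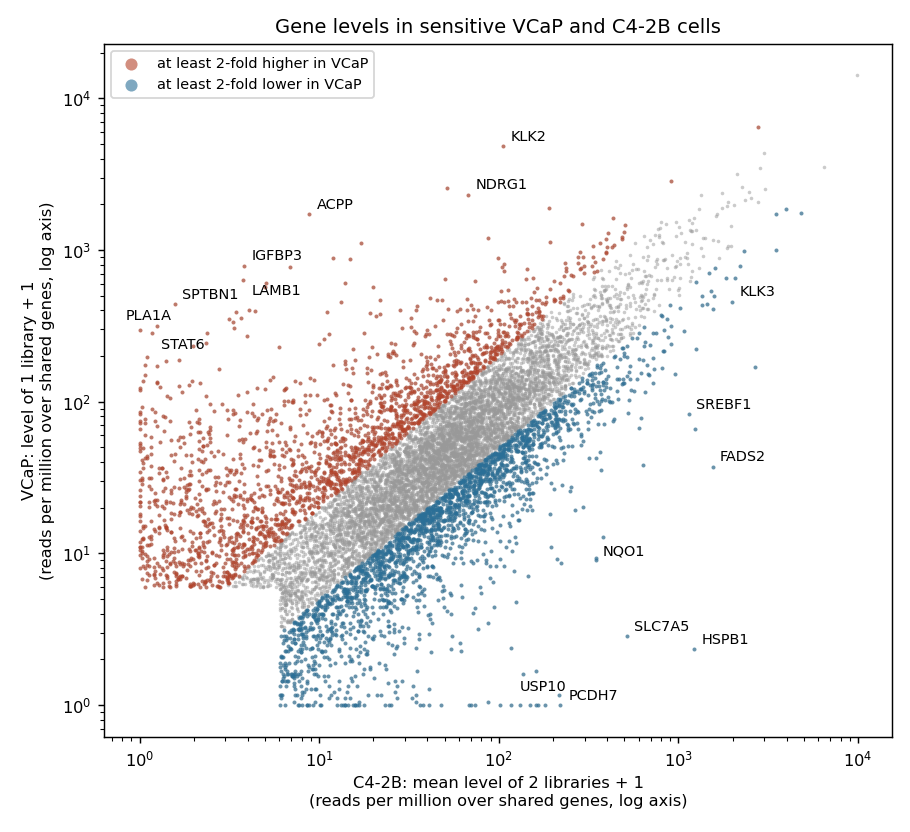
Level + 1 of each of 11676 genes in the VCaP library (vertical log axis) against the mean of both C4-2B libraries (horizontal log axis), as reads per 1000000 over shared genes. Red points (2058) were at least 2-fold higher and blue points (2345) at least 2-fold lower in VCaP, and genes named in the text, such as PLA1A and HSPB1, lie far from the diagonal.

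ERG was detected in VCaP, and genes associated with its fusion were higher there than in C4-2B. ERG stood at 414 reads per 1000000 of the whole VCaP table (RPM), and it is not listed in the C4-2B table, so it was not compared. It was at 0.185 in VCaPENZR. Genes known to be associated with the ERG fusion were at least 2-fold higher in VCaP in 11 of 12 compared cases and lower in 0. Over all genes compared, 17.6% were higher. The list had a median log2 ratio of 4.02 against −0.12 over all genes. PLA1A, a phosphatidylserine-specific phospholipase, had a level of 294.6 in VCaP and no read in either C4-2B library, at least 3918-fold higher. CRISP3, a cysteine-rich secretory protein, was at 566.7 in VCaP, against 2.95 and 4.97 in C4-2B (143-fold, 122 to 168). TDRD1, a tudor protein of the germline, was at 128.6 in VCaP, against 0.951 and 0.803 in C4-2B (146-fold, 105 to 211). All 3 stood under 5 in both C4-2B libraries. Of the compared members, only KCNS3, VWA2 and HDAC1 reached 5 in the C4-2B mean. The others were compared through VCaP alone, so their direction was fixed by the level minimum. VWA2 was at 81.3 in VCaP, against 6.81 and 6.88 in C4-2B.

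Further genes of that list were higher too. NCALD, a neuronal calcium sensor, was at 85.2 in VCaP, against 0.200 and 0.251 in C4-2B. PLA2G7, the secreted phospholipase that inactivates platelet-activating factor, was at 81.6 in VCaP, against 1.95 and 2.66 in C4-2B (35.4-fold, 28.7 to 44.2). The potassium channel subunit KCNS3 was at 40.1 in VCaP, against 10.2 and 13.3 in C4-2B. The exception was HDAC1, a histone deacetylase, at 238.1 in VCaP and 310.1 and 299.7 in C4-2B, 1.28-fold lower (1.24 to 1.33). A further 5 members, ARHGDIB, PLAT, F3, ADGRF5 and AMPD3, are listed in the VCaP table alone.

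The remaining ETS factors stood mostly within 2-fold. Of 16 compared, 3 were higher and 1 lower. ELF3, an epithelial ETS factor, was at 89.0 in VCaP, against 17.5 and 15.4 in C4-2B (5.40-fold, 4.93 to 5.93). EHF, another epithelial member, was at 413.6 in VCaP, against 990.6 and 1042 in C4-2B, 2.46-fold lower (2.40 to 2.52). SPDEF, the prostate-derived ETS factor, stood within 2-fold at 304 in VCaP, against 250.9 and 232.3 in C4-2B. ETV1, which is rearranged in LNCaP, was at 0.11 RPM of the whole table in VCaP and is not listed in the C4-2B table.

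Androgen-activated genes did not shift as a block: 16 of 37 were higher and 9 lower in VCaP, or 43.2% and 24.3%. Kallikreins differed in both directions. KLK2, a kallikrein-related peptidase, had a level of 4854 in VCaP, against 103.6 and 106.2 in C4-2B, 46.3-fold higher (44.9 to 47.8). KLK3, which encodes prostate-specific antigen, was at 456.6 in VCaP, against 2007 and 1963 in C4-2B, 4.35-fold lower (4.25 to 4.45). The pair thus differed in opposite directions although both windows shown above hold the same marked letters. KLK4 was at 270.7 in VCaP, against 99.2 and 100.6 in C4-2B (2.71-fold, 2.60 to 2.83), and KLK15 at 6.37, against 14.1 and 9.44. KLK2 and KLK3 are close paralogs, so some reads may have been counted for the wrong gene.

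Several further androgen-activated genes were far higher in VCaP. ACPP, prostatic acid phosphatase, was at 1719 in VCaP, against 7.76 and 7.83 in C4-2B (220-fold, 197 to 247). TRPM8, the cold-sensing channel, was at 602.6 in VCaP, against 10.4 and 15.4 in C4-2B (46.8-fold, 42.8 to 51.2). HPGD, which degrades prostaglandins, was at 91.0 in VCaP, against 0 and 1 read in C4-2B (3629-fold, 650.3 to 143407). In each of these genes the VCaP value lay far above both C4-2B values, and HPGD reached the level minimum in VCaP alone. NDRG1, a stress-responsive gene, was at 2324 in VCaP, against 58.3 and 75.2 in C4-2B (34.8-fold, 33.5 to 36.2). TMPRSS2, the fusion partner of ERG, was at 671.3 in VCaP, against 227.9 and 230.8 in C4-2B (2.93-fold, 2.85 to 3.01), and reads of fusion transcripts cannot be told apart in gene totals.

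Other androgen-activated genes were lower in VCaP. FKBP5, a co-chaperone of steroid receptors, was at 126.7 in VCaP, against 346.5 and 371.7 in C4-2B, 2.83-fold lower (2.71 to 2.96). SORD, sorbitol dehydrogenase, was at 165.7 in VCaP, against 789.6 and 836 in C4-2B, 4.91-fold lower (4.72 to 5.09). TSC22D3, the glucocorticoid-induced leucine zipper, was at 2.96 in VCaP, against 49.2 and 57.2 in C4-2B, 18.0-fold lower (13.7 to 24.1). GNMT, glycine N-methyltransferase, was at 0.726 in VCaP, against 24.2 and 21.1 in C4-2B, 31.2-fold lower (18.1 to 58.8). In each of these genes the VCaP value lay outside the range of the C4-2B replicates. TSC22D3 and GNMT reached the level minimum in C4-2B alone, which fixed their direction.

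Genes known to be raised by androgen withdrawal were higher in VCaP in 7 of 12 cases and lower in 3, with a median log2 ratio of 1.42. Over all genes compared, 17.6% were higher and 20.1% lower. TMEFF2, OPRK1, BCHE and MTSS1, all higher, reached the level minimum in VCaP alone, which fixed their direction. At a level minimum of 20, which leaves fewer genes, that median was 0.48. TMEFF2, a transmembrane protein with follistatin domains, was at 71.7 in VCaP with no read in C4-2B, at least 953-fold higher. The opioid receptor OPRK1 was at 19.6 in VCaP with no read in C4-2B, at least 261-fold higher. HES6, a transcriptional regulator of the HES family, was at 5.53 in VCaP, against 96.95 and 87.16 in C4-2B, 16.6-fold lower (13.6 to 20.5). Among enzymes of androgen synthesis, AKR1C3, which converts androstenedione to testosterone, was at 50.7 in VCaP with no read in C4-2B, at least 675-fold higher. It too was compared through VCaP alone. Of 11 such genes, 3 were higher and 3 lower.

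Luminal identity was present in both lines. Of 15 luminal genes, 6 were higher and 1 lower in VCaP. The luminal keratin KRT8 was at 437.9 in VCaP, against 317.7 and 313.1 in C4-2B, and KRT18 at 295.4, against 387.3 and 398.6. FOXA1, a pioneer factor of luminal chromatin, was at 843.4 in VCaP, against 438.8 and 462.2 in C4-2B (1.87-fold, 1.83 to 1.91). HOXB13, a homeodomain factor of the prostate, was at 699.2 in VCaP, against 500.7 and 502 in C4-2B (1.395-fold, 1.36 to 1.43). FOLH1, prostate-specific membrane antigen, was at 1162 in VCaP, against 677.2 and 703.3 in C4-2B, and SLC45A3 was at 260.1, against 180.9 and 186.8. All of these stood within 2-fold.

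CD24, a surface glycoprotein, was the luminal gene with the largest ratio, at 357.8 in VCaP, against 3.005 and 2.309 in C4-2B (135-fold, 111 to 165). KRT19 was at 127.9 in VCaP, against 22.9 and 24.5 in C4-2B (5.40-fold). AMACR, a racemase used to stain prostate cancer, was at 186 in VCaP, against 36.9 and 40.8 in C4-2B (4.79-fold, 4.51 to 5.09). CDH1, which encodes E-cadherin, was the 1 lower gene, at 364.5 in VCaP, against 804.9 and 811.2 in C4-2B, 2.22-fold lower (2.16 to 2.28). Of 4 basal genes, 3 were higher, among them DSC3, a desmocollin, at 86.7 in VCaP, against 0.751 and 1.36 in C4-2B. KRT14, a basal keratin, was at 14.5 in VCaP, against 0.300 and 0.452 in C4-2B. CD24, DSC3 and KRT14 reached the level minimum in VCaP alone, which fixed their direction.

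Mesenchymal genes were lower in VCaP in 4 of 4 cases, against 20.1% of all genes compared. VIM and SNAI1, a zinc finger gene of the snail family, reached the level minimum in C4-2B alone, which fixed their direction. VIM, which encodes vimentin, was at 0.224 in VCaP, against 12.9 and 13.7 in C4-2B, 59.5-fold lower (23.1 to 219). FN1, which encodes fibronectin, was at 8.16 in VCaP, against 217.1 and 204.2 in C4-2B, 25.8-fold lower (21.9 to 30.6). ITGA5, a fibronectin receptor subunit, was at 13.0 in VCaP, against 36.6 and 39.6 in C4-2B. A further 4 members were under level 5 in both lines, among them SPARC, a matrix protein, at 2.515 in VCaP, against 0.2003 and 0 in C4-2B, so the 4 lower genes are not the whole list. Among epithelial junction genes, 5 of 24 were higher and 4 lower. TJP1, the tight junction scaffold ZO-1, was at 151.8 in VCaP, against 698.5 and 647.6 in C4-2B, 4.43-fold lower (4.26 to 4.62).

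**Figure D2:**
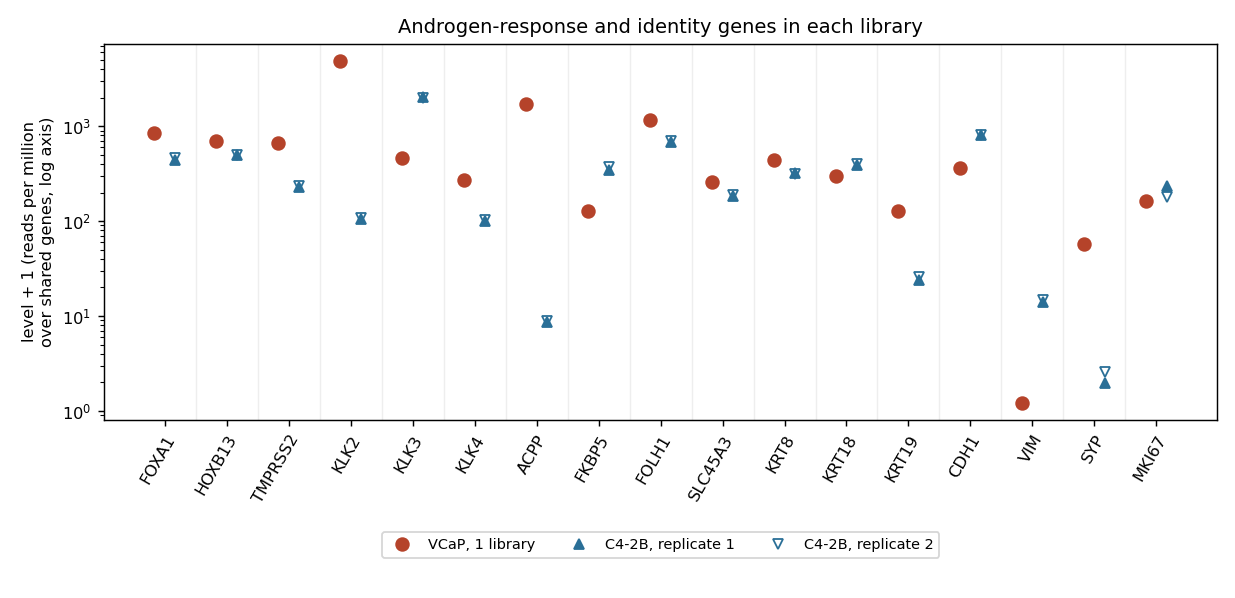
Level + 1 (log axis, reads per 1000000 over shared genes) of 17 androgen-response and identity genes in the VCaP library (red circles) and in C4-2B replicates 1 and 2 (blue triangles). KLK2 and ACPP were higher and KLK3 lower in VCaP, and the C4-2B replicates lay close together for each gene shown.

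Neuroendocrine and secretory genes stood higher in VCaP in 7 of 7 compared cases, against 17.6% of all genes compared. Their median log2 ratio was 4.67 (4.89 with INSM1 at its bound). SYP, which encodes the synaptic vesicle protein synaptophysin, was at 56.3 in VCaP, against 0.951 and 1.56 in C4-2B (44.9-fold, 33.8 to 61.0). UCHL1, a neuronal ubiquitin hydrolase, was at 44.4 in VCaP, against 0.100 and 0.201 in C4-2B (295-fold, 135 to 806). PEG10, a retrotransposon-derived gene, was at 777.4 in VCaP, against 5.51 and 6.28 in C4-2B (132-fold). INSM1, a neuroendocrine transcription factor, was at 15.2 in VCaP with no read in C4-2B, at least 203-fold higher. Members such as SYP, UCHL1 and INSM1 were under level 5 in C4-2B and were compared through VCaP alone. Their direction was thus fixed by the level minimum, whereas PEG10 reached it in both lines.

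Some classical secretory granule genes are listed in the VCaP table alone and were not compared. In RPM of the whole VCaP table, CHGA, chromogranin A, was at 67.0, CHGB, chromogranin B, at 105.4, the peptide NPY at 596.4 and INA, a neuronal intermediate filament, at 170.2. On the same scale they were at 0, 0.062, 0 and 0 in VCaPENZR. Conversely, RET and SSTR2, also neuroendocrine genes, are listed in the C4-2B table alone, so the count of 7 covers the members listed in both.

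The cancer-testis genes were the list with the lowest median. They are normally expressed in germ cells, and MAGEA genes form a cluster on the X chromosome. In VCaP 9 of 10 compared members were lower, and 8 of them had no read in VCaP, with a median log2 ratio of −6.38 (−8.94 with these genes at their bounds). Those 8 reached the level minimum in C4-2B alone, which fixed their direction. MAGEA3 had no read in VCaP, against levels of 163.8 and 154.4 in C4-2B, at least 949-fold lower. MAGEA1 had no read in VCaP, against 149.7 and 147.9, at least 888-fold lower. PAGE1 had no read in VCaP, against 161 and 168.6, at least 983-fold lower. PRAME, a cancer-testis antigen outside these families, was at 6.09 in VCaP, against 139.9 and 150 in C4-2B, 23.8-fold lower (19.68 to 29.03).

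The exception was TDRD1, higher in VCaP as given above and also a member of the ERG-associated list. Reads may be shared among near-identical MAGEA copies such as MAGEA3 and MAGEA6, whose promoter windows were identical, but every copy compared had no read in VCaP. In the other 7 libraries, in RPM of their whole tables, MAGEA3 lay between 113 in CWR-R1 and 163.5 in C4-2B replicate 1, and it was at 121.6 in VCaPENZR.

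ATF4 targets and genes of the unfolded protein response were lower in VCaP in 27 of 32 cases (84.4%) and higher in 0, with a median log2 ratio of −1.80. ATF4 itself was at 263.9 in VCaP, against 569.9 and 596.5 in C4-2B, 2.21-fold lower (2.14 to 2.28). Amino acid transporters were among the lower genes. SLC7A5, the light chain of the L-system transporter LAT1, was at 1.84 in VCaP, against 518 and 508.1 in C4-2B, 278-fold lower (198 to 404). SLC7A11, the cystine and glutamate exchanger, was at 10 in VCaP, against 199.5 and 190 in C4-2B, 19.5-fold lower (16.8 to 22.7). Their shared heavy chain SLC3A2 was at 110 in VCaP, against 252.3 and 238.9 in C4-2B, 2.23-fold lower (2.13 to 2.34).

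Enzymes of serine and one-carbon metabolism followed the same direction. PHGDH, the entry enzyme of serine synthesis, was at 114.3 in VCaP, against 653.2 and 642.9 in C4-2B, 5.67-fold lower (5.42 to 5.93). PSAT1, the next enzyme, was at 76.3 in VCaP, against 421.2 and 453.5 in C4-2B, and ASNS, asparagine synthetase, at 50.1, against 238.5 and 271.5 (5.09-fold lower, 4.76 to 5.46). ALDH1L2, a mitochondrial folate enzyme, was at 0.168 in VCaP, or 3 reads, against 34.6 and 32.9 in C4-2B (201-fold lower, 68.7 to 977.3). Stress regulators were lower too: CHAC1, which degrades glutathione, was at 1.79 in VCaP, against 26.9 and 30.4 in C4-2B (16.03-fold lower, 11.3 to 23.5). DDIT4, an inhibitor of mTOR signalling, was at 19.1 in VCaP, against 285.8 and 297.2 in C4-2B (15.2-fold lower, 13.7 to 17.03).

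The branches of the list did not differ equally. XBP1, the transcription factor of the IRE1 branch, was at 253.8 in VCaP, against 235.6 and 247.7 in C4-2B, and SEL1L and EDEM1 of endoplasmic reticulum degradation also stood within 2-fold. The chaperone HSPA5, also called BiP, was at 667 in VCaP, against 1120 and 1231 in C4-2B, 1.76-fold lower (1.73 to 1.80), and HSP90B1 was 1.38-fold lower. Set beside CWR-R1, on levels over the genes of all 3 tables, the 32 genes had a median log2 ratio of −1.43 in VCaP (20 lower, 0 higher) and of 0.33 in C4-2B (1 lower, 5 higher). Both ratios share the 1 CWR-R1 library.

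**Figure D3:**
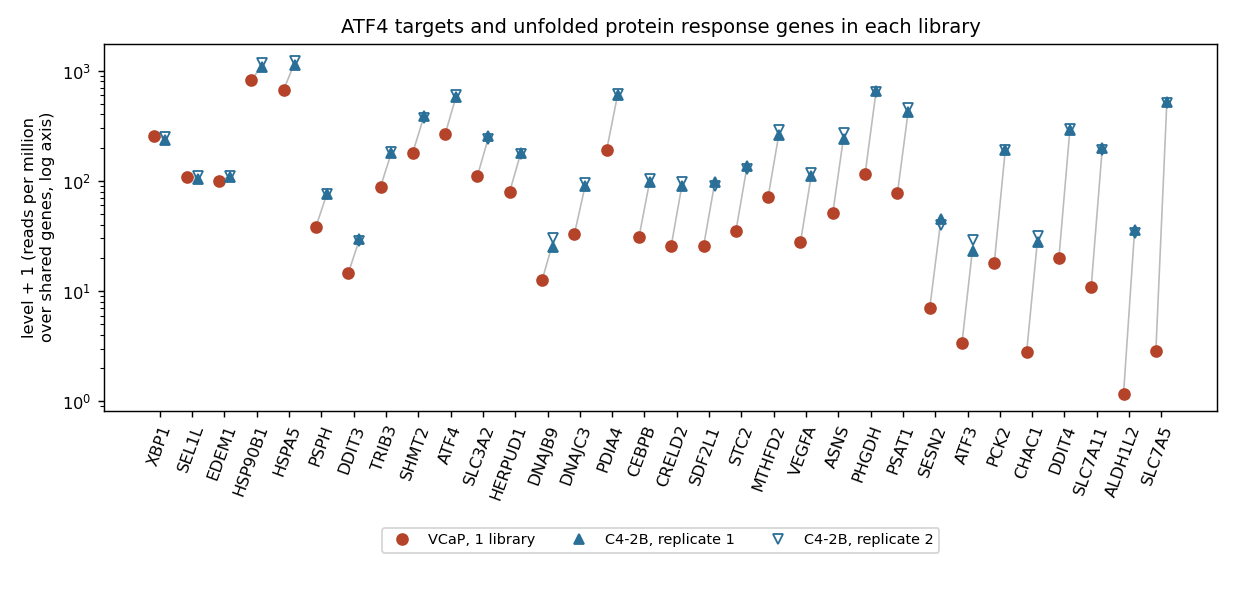
Level + 1 (log axis, reads per 1000000 over shared genes) of the 32 compared ATF4 and unfolded protein response genes in the VCaP library (red circles) and C4-2B replicates 1 and 2 (blue triangles), ordered by ratio. From PSPH rightwards the 27 genes at least 2-fold lower in VCaP lie below both C4-2B values, and SLC7A5 lies furthest.

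Targets of NRF2, the oxidative stress transcription factor, were lower in 13 of 22 cases and higher in 1, with a median of −1.39. NQO1, a quinone reductase, was at 7.99 in VCaP, against 349.1 and 339.6 in C4-2B, 43.1-fold lower (36.6 to 51.2). The malic enzyme ME1, a source of NADPH, was at 18.4 in VCaP, against 147.4 and 157 in C4-2B, 8.25-fold lower (7.39 to 9.25). The ferritin chains differed in opposite directions. FTL, the light chain, was at 407 in VCaP, against 143.8 and 140.6 in C4-2B (2.86-fold higher, 2.76 to 2.96), and FTH1, the heavy chain, at 535.5, against 1512 and 1506 (2.82-fold lower, 2.76 to 2.88). Ferritin genes have processed copies elsewhere in the genome, so their reads are uncertain.

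Lipid synthesis genes went both ways, more of them lower than higher in VCaP. Of 27 cholesterol synthesis genes, 13 were lower and 4 higher, with a median of −0.95, and of 27 fatty acid genes, 10 were lower and 5 higher. SREBF1, the transcription factor SREBP-1, was at 81.9 in VCaP, against 1159 and 1125 in C4-2B, 13.9-fold lower (13.2 to 14.7). INSIG1, the sterol-regulated retention protein, was at 41.5 in VCaP, against 328.8 and 368.3 in C4-2B, 8.41-fold lower (7.81 to 9.06). INSIG1 is a known target of SREBP factors.

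The desaturases followed. FADS2, the delta-6 desaturase, was at 36.2 in VCaP, against 1561 and 1543 in C4-2B, 42.9-fold lower (39.7 to 46.4), and SCD, stearoyl-CoA desaturase, was at 222.2, against 1223 and 1292 (5.66-fold lower, 5.48 to 5.85). FASN, fatty acid synthase, was at 1753 in VCaP, against 5153 and 4432 in C4-2B, 2.73-fold lower (2.70 to 2.77). Late cholesterol enzymes went the other way. SC5D, sterol-C5-desaturase, was at 407.2 in VCaP, against 49.6 and 53.3 in C4-2B (7.92-fold higher, 7.54 to 8.32), and TM7SF2, a sterol reductase, at 746.6, against 151.5 and 133.8 (5.23-fold higher, 5.07 to 5.40). ELOVL2, which elongates polyunsaturated fatty acids, was at 122.3 in VCaP, against 3.81 and 3.16 in C4-2B.

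Glycolysis and hypoxia genes were lower in 10 of 24 cases and higher in 3. SLC16A3, the lactate exporter MCT4, was at 8.33 in VCaP, against 347.4 in both C4-2B libraries, 41.7-fold lower (35.5 to 49.4). HK2, a hexokinase, was at 22.7 in VCaP, against 110.2 and 106.9 in C4-2B, 4.77-fold lower (4.31 to 5.30). EPAS1, which encodes HIF-2 alpha, went the other way, at 284.6 in VCaP, against 0.751 and 2.01 in C4-2B (206-fold higher, 158 to 274). HIF1A stood within 2-fold, at 189.1 in VCaP, against 140.8 and 147.6 in C4-2B.

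Among cell cycle genes, more were lower than higher in VCaP. Of 35 G2 and M genes, 22 (62.9%) were lower and 0 higher, with a median of −1.24, and of 35 G1 and S genes, 13 were lower and 2 higher, with a median of −0.81. CDC20, which activates the anaphase-promoting complex, was at 40.3 in VCaP, against 232.8 and 221.8 in C4-2B, 5.63-fold lower (5.22 to 6.09). PTTG1, securin, was at 10.9 in VCaP, against 80.9 and 85.0 in C4-2B, 7.61-fold lower (6.59 to 8.84). CDK1, the mitotic kinase, was at 99.5 in VCaP, against 388.9 and 432 in C4-2B, 4.12-fold lower (3.93 to 4.33).

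Other proliferation genes did not follow. MKI67, which encodes Ki-67, was at 161.8 in VCaP, against 233.5 and 180.1 in C4-2B, 1.28-fold lower (1.23 to 1.33), and its C4-2B replicates differed by about as much as the lines. TOP2A, topoisomerase II alpha, was at 356 in VCaP, against 244.6 and 250.3 in C4-2B (1.44-fold higher, 1.39 to 1.49). Cyclin D1, encoded by CCND1, was at 873 in VCaP, against 377 and 383.7 in C4-2B (2.29-fold higher, 2.24 to 2.35). Set beside CWR-R1, the 35 G2 and M genes had a median of −1.40 in VCaP and of −0.30 in C4-2B.

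Transcript length moved with the ratio between the lines. Over 11162 of the 11676 genes with a matched length, the median log2 ratio was −0.50 in the fifth with the shortest transcripts (177 to 2199 bases) and 0.18 in the fifth with the longest (6033 to 109224 bases). Its part in the list results was not tested, and each list's median was also taken relative to the medians of its members' length classes. On that scale the G2 and M list stood at −0.96, the ATF4 list at −1.51 and the NRF2 list at −1.12. Histone genes, which are short, stood at −1.40 before and −0.90 after, with 7 of 11 lower in VCaP, and ribosomal protein genes at 0.08 and 0.47.

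Ribosomal and mitochondrial genes were closer between the lines. Of 41 ribosomal protein genes, 2 were higher and 5 lower. RPS19 was at 1296 in VCaP, against 394.9 and 414.7 in C4-2B (3.20-fold higher, 3.14 to 3.27), and RPL13 at 652.9, against 2069 and 2038 (3.15-fold lower, 3.08 to 3.21). Reads of ribosomal protein genes may be shared with their many processed pseudogenes. Of 45 genes of oxidative phosphorylation, 9 were lower and 1 higher. COX8A, a cytochrome c oxidase subunit, was at 686.5 in VCaP, against 260.7 and 241 in C4-2B (2.74-fold higher, 2.67 to 2.81), while COX4I1, another subunit, was at 86.7, against 367.4 and 375.6 (4.29-fold lower, 4.07 to 4.52). RPL13 and COX4I1 belong to the chromosome of USP10 and COX8A to a stretch of higher genes, both described below.

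Signalling through TGF-beta and BMP was represented by more higher genes in VCaP. Of 22 genes, 12 (54.5%) were higher and 2 lower, with a median of 1.21. The ID genes, which encode inhibitors of helix-loop-helix factors and are known BMP targets, were all higher. ID4 was at 197.5 in VCaP, against 0.050 and 0.151 in C4-2B (1970-fold, 768.6 to 7233). ID1 was at 307.7 in VCaP, against 56.8 and 58.7 in C4-2B (5.33-fold, 5.08 to 5.60), ID2 at 110.3, against 7.21 and 10.1, and ID3 at 196.1, against 44.5 and 36.1. The type I receptors BMPR1A and BMPR1B were 2.95-fold (2.67 to 3.25) and 2.78-fold (2.52 to 3.08) higher. The inhibitory SMAD7 was at 47.3 in VCaP, against 6.26 and 5.42 in C4-2B (8.09-fold, 6.99 to 9.40). BAMBI, a decoy receptor, was lower, at 1.79 in VCaP, against 10.3 and 7.83 in C4-2B.

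In the insulin-like growth factor axis 4 of 8 genes were higher and 2 lower. IGFBP3, a binding protein for the ligands, was at 786.1 in VCaP, against 2.15 and 3.51 in C4-2B (278-fold, 231 to 337). IRS2, a receptor substrate, was at 145.5 in VCaP, against 4.46 and 4.67 in C4-2B (31.9-fold, 27.4 to 37.3), and the receptor IGF1R at 550.5, against 194.5 and 189.3 (2.87-fold, 2.78 to 2.96). IGF2BP3, an RNA-binding protein, was at 2.01 in VCaP, against 25.5 and 24.6 in C4-2B. In receptor tyrosine kinases and VEGFA, 7 of 20 were higher and 7 lower. ERBB3, a receptor for neuregulin, was at 48.9 in VCaP, against 231.8 and 220.5 in C4-2B (4.62-fold lower, 4.31 to 4.96), and EGFR at 29.7, against 91.0 and 84.5 (2.95-fold lower, 2.69 to 3.24).

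In the PI3K pathway 5 of 24 genes were higher and 3 lower. PIK3CD, a catalytic subunit of PI3K, was at 1.397 in VCaP, against 118.9 and 113.9 in C4-2B (83.3-fold lower, 56.4 to 129).

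Interferon response genes were higher in VCaP in 13 of 25 cases (52%) and lower in 5 (20%), with a median of 1.05. Over all genes compared, 17.6% were higher and 20.1% lower. UBE2L6, an enzyme that attaches ISG15, was at 27.4 in VCaP, against 0.751 and 0.904 in C4-2B (33.1-fold, 23.2 to 48.6), and OAS1, an antiviral sensor, at 13.6, against 0.551 and 0.251. BST2, the antiviral tether, had 1 read in VCaP, against levels of 34.9 and 32.1 in C4-2B (599-fold lower, 107.4 to 23693). UBE2L6 and OAS1 reached the level minimum in VCaP alone and BST2 in C4-2B alone, which fixed their directions. Antigen presentation split within itself. HLA-C, a class I heavy chain, was 3.88-fold lower (3.58 to 4.22), while its partner B2M was at 297.8 in VCaP, against 91.5 and 105.5 in C4-2B (3.02-fold higher, 2.90 to 3.15). HLA genes are polymorphic and share sequence, so their reads are uncertain.

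Among the highest genes outside these lists, several were close to 0 in C4-2B although CWR-R1 expressed them. SPTBN1, the spectrin chain of the membrane skeleton, was at 437.9 in VCaP, against 0.801 and 0.351 in C4-2B (760-fold, 506 to 1199). STAT6, the transcription factor of interleukin-4 signalling, was at 282.1 in VCaP, against 0.200 and 0.151 in C4-2B (1607-fold, 779.5 to 4000). In RPM of the whole tables, CWR-R1 stood at 166 for SPTBN1 and 39.1 for STAT6, and the C4-2BENZR libraries at 1.24 and 1.44, and at 0.346 and 0.299. LAMB1, a laminin chain, was at 631.6 in VCaP, against 2.55 and 2.96 in C4-2B (229-fold, 190 to 279). AOX1, aldehyde oxidase, was at 174.9 in VCaP, against 0.100 and 0.050 in C4-2B, and REG4, a secreted lectin, at 314, against 0.300 and 0.201. OBSL1, FAM84A and B3GAT1 were the rest of the 12 highest.

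Among the lowest, HSPB1, which encodes the small heat shock protein HSP27, was at 1.34 in VCaP, against 1209 and 1238 in C4-2B, 912-fold lower (613 to 1424). PCDH7, a protocadherin, had no read in VCaP, against 221.3 and 214.9 in C4-2B, at least 1301-fold lower. EFNA5, an ephrin, was at 0.168 in VCaP, or 3 reads, against 210.5 and 221.1 in C4-2B (1287-fold lower, 440.3 to 6243). TXNRD2, the mitochondrial thioredoxin reductase, was at 0.67 in VCaP, against 166.6 and 153.2 in C4-2B (238-fold lower, 136 to 462).

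A pair of widely expressed genes had no read in VCaP and stood high in each of the other 7 libraries. USP10, a deubiquitinase, was at 0 in VCaP, against 180.5 and 177.8 in C4-2B, at least 1069-fold lower, and it ranged from 122.6 to 180.1 RPM of the whole table in the other 7 libraries. PPP2R2A, a regulatory subunit of protein phosphatase 2A, was at 0 in VCaP, against 128.3 and 133.3 in C4-2B, at least 780-fold lower, and it ranged from 117.7 to 136.8 in the other 7 libraries. In VCaPENZR they stood at 158.2 and 135.1 RPM. In all, 41 compared genes had no read in VCaP and 29 had none in C4-2B.

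Neighbouring genes often differed together. Along the RefSeq gene order, used for neighbours alone, the median log2 ratio was taken over each run of 15 consecutive compared genes. Over 11227 such runs the central 95% of medians lay between −1.32 and 1.06. The highest, from SLC3A2 to FLRT1, had a median of 2.36 with 14 genes higher and 1 lower. It held MARK2, a microtubule affinity kinase, at 771 in VCaP, against 104.9 and 100.5 in C4-2B, RTN3, a reticulon, at 1489, against 279.5 and 297.9, and PLA2G16, a phospholipase, at 390.1, against 9.62 and 10.5. The next, from KLK15 to ZNF432, had a median of 2.11 with 9 of 15 genes higher and 2 lower. It held KLK2 and zinc finger genes such as ZNF615, at 279 in VCaP, against 9.06 and 11.55 in C4-2B, and its 2 lower genes were KLK3 and CTU1. In the third, from SNHG5 to CASP8AP2, 14 of 15 genes were higher (median 2.07), among them UBE2J1, an enzyme of endoplasmic reticulum degradation, at 198.8 in VCaP, against 43.1 and 46.6 in C4-2B.

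The lowest run, from VMA21 to MAGEA1, had a median of −4.65 with 13 of 15 genes lower, and it is the MAGEA cluster described above. The following ones, from MVD to CPNE7 (median −2.28) and from KLHL36 to SLC7A5 (−2.09), each had 13 of 15 genes lower and lie on the chromosome that carries USP10. They held SLC7A5 and USP10 beside ANKRD11, a chromatin regulator, at 58.1 in VCaP, against 305.7 and 266.8 in C4-2B, and the acyltransferase ZDHHC7, at 4.53, against 78.6 and 78.3. Over that whole chromosome, 301 of 561 compared genes (53.65%) were lower and 31 higher, with a median of −1.08. The first 280 genes in order had a median of −1.04 and the other 281 one of −1.17, so the low values ran along its whole length. Set beside CWR-R1, 558 of these genes had a median of −0.88 in VCaP and 0.18 in C4-2B.

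Lists that hold genes of that chromosome were therefore also counted without them. The ATF4 list, without SLC7A5 and HERPUD1, kept a median of −1.80 with 25 of 30 genes lower. The NRF2 list, without NQO1 and ABCC1, had a median of −1.26 with 11 of 20 lower, and the G2 and M list, without PLK1, one of −1.20 with 21 of 34 lower. CDH1, the lower luminal gene, lies there as well. The highest chromosome median among those with over 100 compared genes was that of the chromosome carrying TMPRSS2, with 55 of 119 genes higher (46.22%), 6 lower and a median of 0.89.

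**Figure D4:**
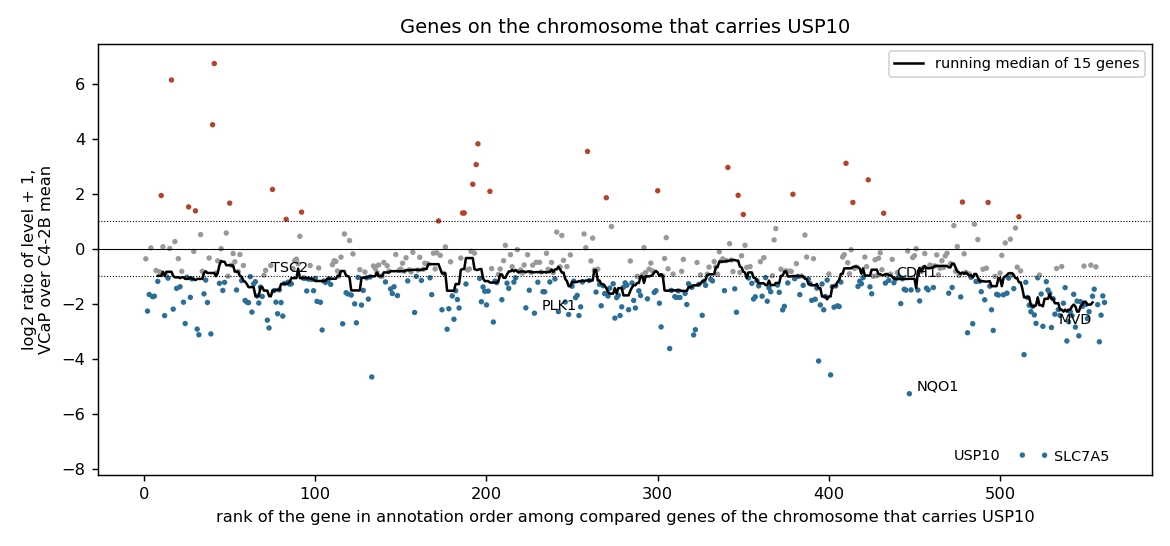
Log2 ratio of level + 1, VCaP over the C4-2B mean, of 561 compared genes in annotation order along the chromosome that carries USP10, with the running median of 15 genes as a black line. The line lies below 0 throughout, and USP10 and SLC7A5 are the lowest points.

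Few markers of other cell types could be compared. Of 7 fibroblast markers, LUM and COL1A1 were compared, with a summed level of 28.95 in VCaP, against 14.6 and 11.9 in C4-2B. LUM, a matrix proteoglycan, was at 20.8 in VCaP with no read in C4-2B, and COL1A1 at 8.10, against 14.6 and 11.9. Of 6 endothelial markers VWF was compared, at 3.07 in VCaP, against 7.31 and 7.03 in C4-2B, and of 7 blood markers CD68, at 0.503, against 12.7 and 15.2. A further 2 blood markers are listed in the VCaP table alone, and 1 fibroblast and 1 endothelial marker in the C4-2B table alone. The part of such cells in the results was not tested. Of 25 housekeeping genes, 1 was higher and 4 lower, with a median of −0.22. ACTB, beta-actin, was among the lower ones, at 1005 in VCaP, against 3385 and 3557 in C4-2B (3.45-fold lower, 3.40 to 3.51).

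**Figure D5:**
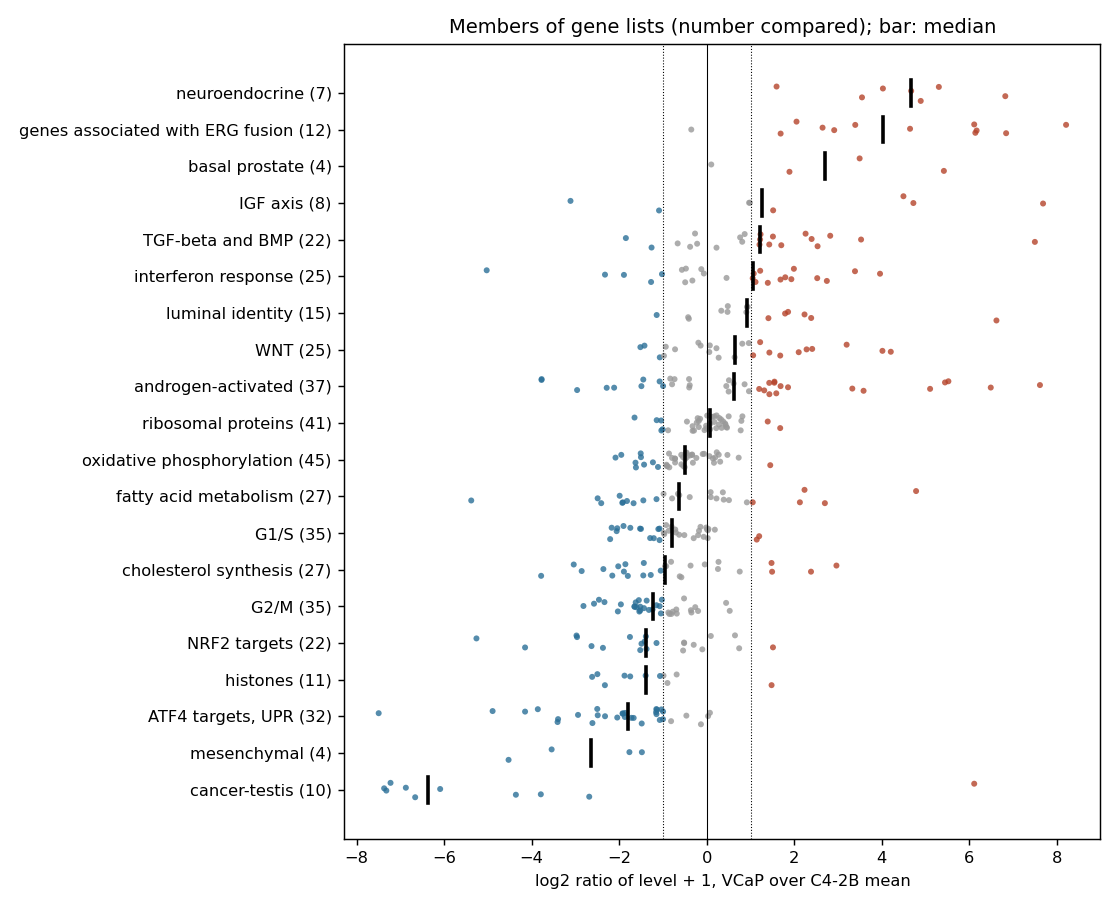
Log2 ratio of level + 1, VCaP over the C4-2B mean, of the compared members of 20 gene lists, 1 point per gene, with the median as a black bar and the number compared in brackets. Neuroendocrine and ERG-associated genes lie to the right and ATF4, mesenchymal and cancer-testis genes to the left of the dotted lines, which mark 2-fold.

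In all, 9 of 42 lists had a median log2 ratio of at least 1 and 8 had one of −1 or less. The lists hold 1051 genes, of which 942 are listed in a table of either line, 839 in both and 768 were compared.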

How the data were processed

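Polyadenylated RNA of enzalutamide-sensitive VCaP (1 library) and C4-2B (2 libraries) was sequenced, with hg19 as genome build per the submitters' processing notes. Which aligner, counter and test were used is not stated there or in the labels. The authors deposited a scaled signal per gene and library for detectable genes. In every library these values came out as whole reads within 0.02 of a read, and levels were computed from those reads. The authors' deposited signed fold scores and p-values compare resistant with sensitive cells and were not used. The tables hold 0 columns of other series.

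Levels were taken in reads per 1000000 over the genes listed in both tables, with a pseudocount of 1 for log2 ratios. The lines stand in separate tables and VCaP has 1 library, so no count test was run. Intervals and floors cover counting error only. The gene lists and the comparison were chosen with earlier results of these data known. Named genes were the 12 highest and 12 lowest, the identity genes, up to 4 largest and 2 opposite differences per list, and genes of the extreme runs. ATF4, MKI67 and other list members outside that rule were named after their values were seen. Some identity and list genes are not reported here. Gene order and promoters came from RefSeq GRCh38.p14. Transcript lengths were those of the longest GENCODE transcript of each gene symbol. Alternatives were other scalings, pseudocounts, level minimums and fold thresholds, each C4-2B library left out, a length correction, and the genes linked to USP10 left out, the last pair chosen after seeing the data. The computation was tested on simulated data. Python 3.11.15, numpy 2.4.6, pandas 2.3.3, scipy 1.17.1 and R 4.3.3 were used, with edgeR 4.0.16 for TMM factors alone.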

Additional observations from a re-analysis of the deposited data

Results flagged for a closer look

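Genes listed in the table of 1 line alone entered no comparison, and the 8 highest on each side are given here in reads per 1000000 of their own table. In VCaP, ITM2A, a transmembrane protein, stood at 745, the peptide NPY at 596, ERG at 414, ADIRF at 359, DNAJA4, a co-chaperone, at 305, CSRP2, a LIM domain protein, at 272, CADPS, which primes secretory vesicles, at 197, and the calcium channel subunit CACNA1B at 196. In the C4-2B mean, the growth factor IGF1 stood at 101, AZGP1, a secreted glycoprotein, at 95.6, EFS at 81.0, the cancer-testis gene GAGE12G at 75.7, MAGEA10 at 49.1, SOHLH2, a germline factor, at 47.8, the neuroligin NLGN4X at 44.0 and the lysophosphatidic acid receptor LPAR3 at 40.2. In all, 1620 genes were listed in the VCaP table and not in that of C4-2B, with 1.518% of VCaP reads, and 789 the other way, with 0.1939% of C4-2B reads. Near-identical copies make the reads of GAGE12G uncertain.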

How the results depend on the processing

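Counts of genes moved by over 1.5 times with the fold threshold alone: 3851 lower genes at 1.5-fold, and 879 higher and 607 lower genes at 4-fold. Leaving out a C4-2B replicate gave 2048 to 2092 higher and 2322 to 2371 lower genes. Median-of-ratios scaling moved the median of all genes from −0.12 to 0.01 and the share of higher calls from 46.74% to 54.03%, and TMM moved that share to 52.67%, with 2278 higher and 2047 lower genes. All 194 named genes past 2-fold and all 10 runs of neighbouring genes kept their sign under the alternatives run. Of 17 lists with a median past 2-fold, 16 did. The exception was cadherins and protocadherins, whose median was −1.03 at a level minimum of 20, which leaves fewer genes, against 1.62. At that minimum the median of genes raised by androgen withdrawal was 0.48, against 1.42. No paired analysis was possible because the lines are separate and no label pairs the VCaP library with a C4-2B library. With 1 VCaP library, its own spread is unknown.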

Other observations

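WNT pathway genes were higher in VCaP in 10 of 25 cases and lower in 3, with a median log2 ratio of 0.63. Among 16 NOTCH genes 3 were higher and 6 lower, and among 15 HOX genes 6 were higher and 4 lower. Of 40 chromatin regulators, 5 were higher and 5 lower, with a median of 0.38, and of 31 nuclear receptors and coregulators, 10 were higher and 4 lower. Of 14 metallothionein and zinc genes, 1 was higher and 4 lower, with a median of −0.39. Without MT1X and MT2A, which lie on the chromosome of USP10, that median was 0.06.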
